A study of Mus musculus with 6 samples.

Results

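The genes of the lipid droplet coat were compared between normal liver and liver tumors of C3H mice, a strain whose males develop liver tumors spontaneously. The set was chosen by name and held 10 genes: the perilipins Plin1, Plin2, Plin3, Plin4 and Plin5, the Cide genes Cidea, Cideb and Cidec, the lipase Pnpla2 and its inhibitor G0s2. They were measured by 12 of the 55681 probes on the arrays, or 10 of 34741 genes, and all 12 probes were assigned through the accession of their transcript. The normal liver group held 3 livers and the liver tumor group 3 tumors of male C3H/HeN mice aged 74 to 75 weeks. All were F2 animals of the control arm, kept on the CA-1 standard diet and tap water. By the study's methods the tumors carried a Ha-ras mutation. The labels do not say whether any tumor and normal liver came from the same mouse.

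Lipid droplets store triglyceride and cholesterol ester in a core covered by a phospholipid layer and coat proteins. Perilipins are the main coat proteins: Plin1 and Plin4 are abundant in adipocytes, Plin2 and Plin3 are found in most cells, and Plin5 is typical of tissues that oxidise fatty acids. Cide proteins sit where droplets touch and promote the passage of lipid into the larger droplet. Cideb is the Cide protein of hepatocytes, while Cidea and Cidec are known from brown and white fat and appear in the fatty liver. Pnpla2 (Atgl) starts the breakdown of triglyceride, with Abhd5 as its activator and G0s2 as its inhibitor.

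Upstream sequence is shown for Plin2 and Cidec, which were higher in the tumors, and for Plin5, which was lower. These are examples, as Plin3, Cidea and Cideb were also called and are not shown. Each run is on the minus strand of GRCm38.p6, ends at the edge of the annotated gene and was taken from RefSeq. Capitals mark AGGTCA or its reverse complement TGACCT, the core element of nuclear receptors such as the PPARs.
Plin2, chr4:86670218-86670309: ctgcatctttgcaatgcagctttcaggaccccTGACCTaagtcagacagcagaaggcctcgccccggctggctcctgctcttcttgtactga
Plin5, chr17:56117607-56117798: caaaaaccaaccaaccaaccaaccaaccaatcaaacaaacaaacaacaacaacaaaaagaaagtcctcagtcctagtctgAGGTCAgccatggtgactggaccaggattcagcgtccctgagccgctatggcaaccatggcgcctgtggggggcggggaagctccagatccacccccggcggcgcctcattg
Cidec, chr6:113435761-113436010: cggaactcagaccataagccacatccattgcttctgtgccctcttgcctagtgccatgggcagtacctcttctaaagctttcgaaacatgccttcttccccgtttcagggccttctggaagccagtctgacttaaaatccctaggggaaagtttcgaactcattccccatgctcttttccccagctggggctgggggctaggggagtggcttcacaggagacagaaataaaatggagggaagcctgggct
On either strand, AGGTCA was found in 3 of 11 member windows of 300 bases, belonging to Plin2 and Plin5, and in 16.3% of all 32851 RefSeq windows. Cidea was left out of these 11 windows and was not searched as a member. The member counts of all motifs given here therefore do not cover Cidea. The tandem form AGGTCANAGGTCA, which contains the shorter motif, was in 0 of 11 member windows and 0.0396% of all windows. CACGTG, the E-box, was in 1 of 11 member windows, that of Plin2 beyond the stretch printed, and in 7.15% of all windows. These matches are a description of the sequence, and all of the motifs were chosen after the expression values were known.

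Cideb and Cidec each had a second probe with at least 1 reading frame free of stop codons, and these are shown because each gene was read by a pair of probes. Their sequences of 60 bases, with coordinates of the array design on mm9 and no capitals, were as follows.
Cideb probe A_55_P2008056, chr14:56373658-56373717, minus strand: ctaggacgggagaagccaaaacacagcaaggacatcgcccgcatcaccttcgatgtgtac
Cidec probe A_55_P1969128, chr6:113378116-113378175, minus strand: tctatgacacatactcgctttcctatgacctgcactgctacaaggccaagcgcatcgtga

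An expression value is the processed signal of a probe divided by the 75th percentile of its array, and log2 fold changes compare liver tumor with normal liver. That percentile was 123.857 to 176.828 in the normal livers and 171.02 to 182.627 in the tumors. Between 44.7% and 48.9% of the spots other than controls were well above background, and 0 spots were saturated. The normal livers were on slide 1 and the tumors on slide 2, with a median local background of 42 to 45 and of 22 to 23, so for every result the slide and the tissue cannot be told apart. Limma tested 24901 probes, those well above background throughout at least 1 group (3 of 3 arrays), and called a probe at an adjusted p under 0.05. It called 3112 probes higher and 5127 lower, so that 37.8% of the calls were higher. Scaling by the spike-in controls moved the median log2 fold change of all probes from -0.13 to 0.04, a shift of 0.17, and 60.8% of the calls were then higher (3041 higher and 1962 lower). The number of arrays limits the precision, and p-values measure only the spread between these samples.

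Of the 10 genes, 9 were tested, and 8 were well above background on all 6 arrays. In the liver tumors 4 were higher (Plin2, Plin3, Cidea and Cidec), 2 were lower (Plin5 and Cideb), and 3 did not pass the test (Plin4, G0s2 and Pnpla2). Over all 18545 genes tested, 13.1% were called higher and 21.0% lower, 34.1% in all. Groups without overlap were seen in 6 of the 9 member genes, against 51.8% of all genes tested. The median log2 fold change was -0.12 over the tested members and -0.13 over all genes. Cidea passed the filter only through the tumors, and among the other 8 tested genes 3 were higher and 2 lower. In whole tissue, fewer cells of a type and less RNA per cell cannot be told apart.

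**Figure D1:**
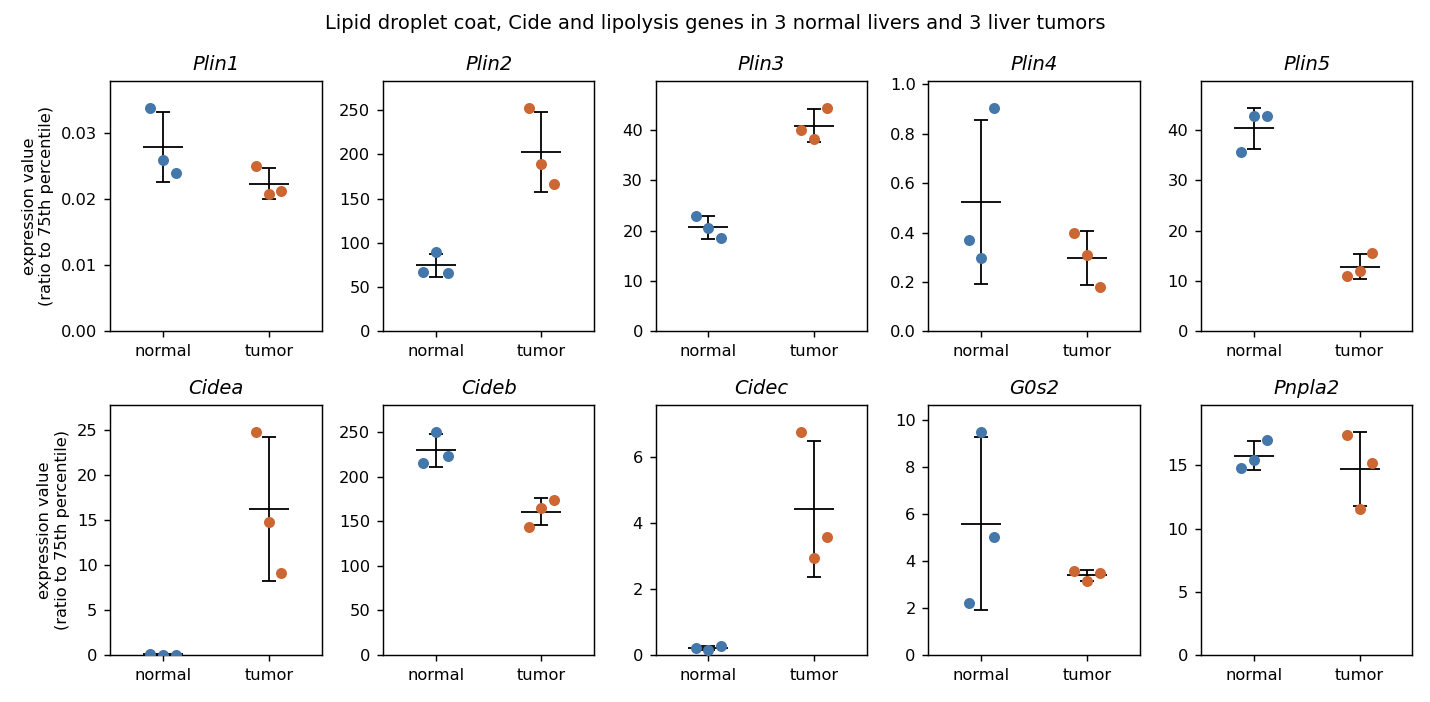
Expression value (ratio to the 75th percentile of the array, linear axis from 0) of the representative probe of each member gene in 3 normal livers (blue) and 3 liver tumors (orange). Points are single arrays, and bars are the mean and SD; Plin1 on all arrays and Cidea in the normal livers were not above background. The groups are apart for Plin2, Plin3, Plin5, Cidea, Cideb and Cidec.

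Plin2, the perilipin that marks stored lipid in hepatocytes, was higher in every tumor. Its probe on mm9 chr4:86302847-86302906 read 67.5, 89.8 and 66.2 in normal livers 1 to 3, and 253, 189 and 166 in tumors 1 to 3. The lowest tumor was above the highest normal liver. The log2 fold change was 1.44 (SE 0.20, limma's adjusted p = 0.00404), or 2.70-fold.

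Plin3 coats nascent droplets. On chr17:56418429-56418488 it read 22.9, 20.6 and 18.5 in the normal livers and 40.1, 38.1 and 44.4 in the tumors. The tumors stood close together and all above the normal livers. The log2 fold change was 0.99 (SE 0.13, limma's adjusted p = 0.00317). Within each array, the log2 difference of Plin2 and Plin3 was 0.45 larger in the tumors, with the groups overlapping (exact permutation test, two-sided p = 0.2). A shift of Plin2 beyond that of Plin3 was therefore not detectable with 3 arrays a group, for which 0.1 is the smallest possible p.

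Plin5, which holds droplets close to mitochondria, went the other way. On chr17:56251025-56251084 it read 35.7, 42.7 and 42.7 in the normal livers. The tumors read 10.9, 11.9 and 15.6, and the highest of them was below the lowest normal liver. Plin5 fell by 1.67 on the log2 scale (SE 0.17, limma's adjusted p = 0.00135), so that the normal livers were 3.17-fold above the tumors.

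Plin4, mainly a protein of white fat and muscle, was dim and variable. On chr17:56240055-56240114 it read 0.368, 0.295 and 0.905 in the normal livers and 0.398, 0.310 and 0.179 in the tumors. Normal liver 3 was high and tumor 3 low, and the groups overlapped. The log2 fold change was -0.72 with a 95% interval from -1.87 to 0.43 (limma's adjusted p = 0.289). Plin1, the coat protein of adipocytes, was on no array well above background and was not tested. Its probe on chr7:86866112-86866171 read 0.0239 to 0.0338 in the normal livers and 0.0208 to 0.0250 in the tumors.

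Of the Cide genes, Cidea and Cidec were higher and Cideb lower. Cidea, on chr18:67527351-67527410, read 0.0791, 0.0307 and 0.0317 in the normal livers and was in none of them well above background. The tumors read 24.8, 14.7 and 9.07, all well above background, with tumor 1 highest. Limma's adjusted p for Cidea, 1.93e-04, belongs to the fitted change, which rests on normal values not well above background. Cidea passed the filter only through the tumors, so that p adds no separate support. As a bound, the tumors were at least 131-fold higher for Cidea. This bound sets the tumors' mean against the lowest signal well above background, or the probe's own where that was higher, on each normal array. After normexp with an offset of 50, which raises dim signals, the fitted log2 fold change was 4.99, below the bound of 7.04.

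Cidec (Fsp27) promotes the growth of large droplets. Its brighter probe, on chr6:113374630-113374689, read 0.198, 0.161 and 0.282 in the normal livers. The tumors read 6.78, 2.93 and 3.57, and tumor 1 was again the highest. The log2 fold change was 4.32 (SE 0.35, limma's adjusted p = 6.44e-04), or 19.9-fold, and 2.83 after normexp. The second probe, shown above, was in no normal liver well above background and read 0.635, 0.217 and 0.379 in the tumors. It passed the filter only through the tumors, so it adds no separate support. By it Cidec was higher by at least 3.29-fold (limma's adjusted p = 0.00898, for the fitted change and not this bound).

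Cideb, which also takes part in loading lipid onto very low density lipoprotein, showed the smallest called change. On chr14:56372942-56373001 it read 215, 251 and 224 in the normal livers and 144, 165 and 174 in the tumors. The groups were apart, and Cideb fell by 0.52 on the log2 scale (SE 0.13, limma's adjusted p = 0.0229). The second probe read 27.3, 30.4 and 29.0 against 18.6, 19.7 and 23.3, a log2 fold change of -0.50 (limma's adjusted p = 0.0259). The call of Cideb was lost with spike-in scaling (-0.35, limma's adjusted p = 0.401), with normexp, quantile normalization or no filter, and without normal liver 2 or 3 or tumor 1 or 2. Within each array, the log2 difference of Cidec and Cideb was 4.83 larger in the tumors, and the groups were apart (exact permutation test, two-sided p = 0.1, the smallest possible).

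**Figure D2:**
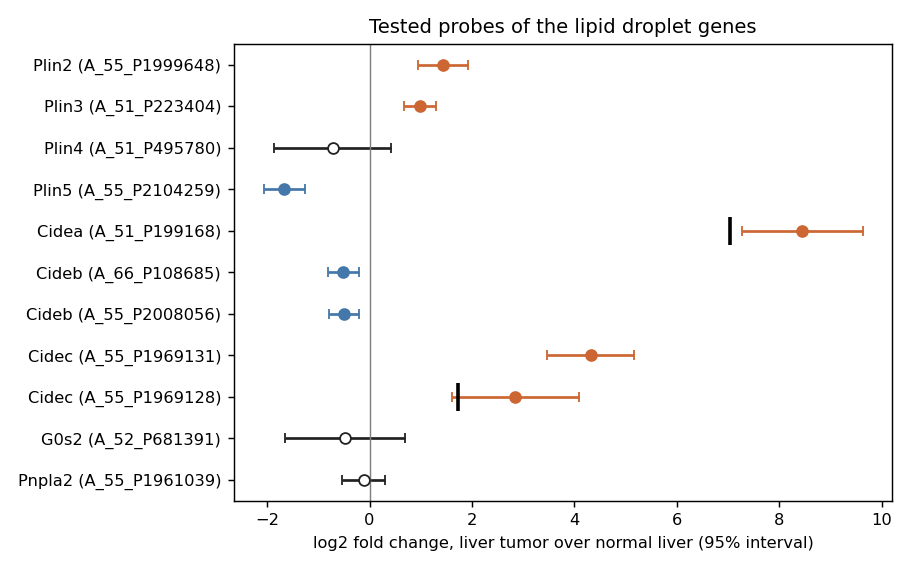
Log2 fold change of liver tumor over normal liver for each tested probe of the member genes, with limma's 95% interval. Filled orange points were called higher, filled blue points lower and open points were not called; the vertical tick on Cidea (7.04) and on the second probe of Cidec (1.72) is the bound that replaces the fitted value.

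Pnpla2, the lipase that opens triglyceride breakdown, read 14.8, 15.5 and 17.1 in the normal livers and 17.4, 11.6 and 15.2 in the tumors (chr7:148645928-148645987). The tumors lay on both sides of the normal livers. The log2 fold change was -0.12, with a 95% interval from -0.53 to 0.30 (limma's adjusted p = 0.637), and it was above 0 with normexp (0.048), quantile normalization (0.020) and spike-in scaling (0.048). G0s2, its inhibitor, read 2.20, 9.49 and 5.01 in the normal livers and 3.56, 3.12 and 3.49 in the tumors (chr1:195098925-195098984). The normal livers spread widely around the tumors, and the interval of the log2 fold change, -1.65 to 0.69, was wide (limma's adjusted p = 0.489). The log2 difference of G0s2 and Pnpla2 within an array changed by a mean of -0.36 from the normal livers to the tumors, with the groups overlapping (exact permutation test, two-sided p = 0.7), and was 0.16 without normal liver 2.

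Abhd5, the activator of Pnpla2, is no member of the set and was higher in the tumors. It read 4.07, 4.17 and 4.49 in the normal livers and 12.6, 19.3 and 19.1 in the tumors. Each tumor was above each normal liver, with a log2 fold change of 1.97 (SE 0.19, limma's adjusted p = 0.00110). Further probes of Abhd5 gave log2 fold changes from 1.71 to 1.73. The log2 difference of Abhd5 and Pnpla2 was -1.86, -1.89 and -1.92 in the normal livers and -0.47, 0.74 and 0.33 in the tumors, 2.09 larger in the tumors without overlap (exact permutation test, two-sided p = 0.1, the smallest possible). The levels of different probes are not comparable, so only the shift of this difference between groups can be read.

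Over all genes tested, 13.1% were higher and 21.0% lower, with a median log2 fold change of -0.13. Among 10 lipolysis partners, all tested, 3 were higher, 4 lower and 3 did not pass, with a median log2 fold change of -0.28. Beside Abhd5, the higher genes were Hilpda, another inhibitor of Pnpla2 (log2 fold change 1.47, SE 0.13, limma's adjusted p = 7.81e-04), and Pnpla3, a patatin-like protein of the hepatocyte droplet (3.20, SE 0.53, limma's adjusted p = 0.00668). Hilpda read 0.959, 1.23 and 1.05 in the normal livers and 2.82, 3.03 and 3.07 in the tumors. Pnpla3 read 0.293, 0.119 and 0.152 against 3.33, 0.946 and 1.31, with tumor 1 highest. Pnpla3 was well above background in 2 of 3 normal livers, so it passed the filter only through the tumors. Its log2 fold change was 1.70 after normexp.

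The lower genes were the carboxylesterase Ces1d (-1.59), the monoglyceride lipase Mgll (-1.36), the droplet hydrolase Ldah (-1.05) and Aadac (-0.39), the last of which was not called with spike-in scaling (limma's adjusted p = 0.608), normexp (-0.21, limma's adjusted p = 0.0882), quantile normalization or the replicate block. Mgll, which cleaves the last fatty acid from glycerol, read 36.6, 43.4 and 37.1 in the normal livers and 12.5, 14.7 and 18.9 in the tumors. Ces1d read 190, 224 and 203 against 52.1, 81.2 and 75.9. Lipe, the hormone-sensitive lipase (-0.17), Lipa, the lysosomal acid lipase (-0.01), and Ces1g (-3.71, limma's adjusted p = 0.0597) were not called. Ces1g was called lower with normexp (-3.13, limma's adjusted p = 0.0321) and with spike-in scaling (-3.54, limma's adjusted p = 0.00647), so the list's 4 lower calls there were not those of the same genes. Tumor 1 read 0.251 for Ces1g and the other tumors 9.60 and 3.38.

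Of 17 genes of droplet formation and other droplet proteins, 16 were tested, 2 were higher, 6 lower and 8 did not pass, with a median of -0.23. The shares over all genes tested were 13.1% higher and 21.0% lower, with a median of -0.13. Ldaf1, the partner of seipin at the site of droplet birth, was higher (named Tmem159 in the annotation used, log2 fold change 1.91, SE 0.28, limma's adjusted p = 0.00477), as was Acsl3, a fatty acid activating enzyme of nascent droplets (1.03). Tmem159 was well above background in 2 of 3 normal livers, so it passed the filter only through the tumors. After normexp the log2 fold change of Tmem159 was 0.81. Fitm1 was lower at -3.48 (SE 0.95, and -2.17 after normexp), with 0.0751, 0.359 and 1.30 in the tumors against 3.16 to 4.84 in the normal livers. Fitm1 was well above background in 2 of 3 tumors, so it passed the filter only through the normal livers. The droplet-bound enzyme Hsd17b11 (-1.52), Mettl7b (-1.20), the triglyceride synthesis enzyme Dgat2 (-0.61), Fitm2 (-0.51) and Aup1 (-0.49) were lower as well. Cav1 was well above background on 2 tumor arrays and no normal array, and was not tested. The list had 3 lower calls with spike-in scaling, and without normal liver 2 there were 2. Only 1 gene of the list was called higher without normal liver 1 or 3 or without tumor 1 or 2. Dgat2 (limma's adjusted p = 0.274), Fitm2 and Aup1 were not called with spike-in scaling, nor was Fitm2 with normexp or quantile normalization.

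Triglyceride leaves the hepatocyte on lipoproteins. Of 5 genes of this step, Tm6sf2 was higher (log2 fold change 0.92, limma's adjusted p = 0.00310), at 32.0, 30.8 and 29.5 in the tumors against 14.9, 18.1 and 16.0. Arfrp1 was lower at -0.36 (limma's adjusted p = 0.0410), although its other probes read -0.19 and 0.05 and the call was lost with any array left out. Mttp (0.20), Apob (-0.11) and Sar1b (-0.30) were not called by their brightest probes. The other probe of Apob read 0.55 and was called higher (limma's adjusted p = 0.0455), so the probes of Apob disagreed.

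PPARs are receptors that sense fatty acids and drive several perilipin and Cide genes. Of 21 such receptors and targets, 20 were tested, 4 were higher, 8 lower and 8 did not pass, with a median of -0.54. Over all genes tested the shares were 13.1% higher and 21.0% lower, and the median was -0.13. The higher genes of the list were Vnn1, Fabp4, Pparg and Cpt1a. Vnn1 was in no normal liver well above background and passed the filter only through the tumors. It was at least 14.0-fold higher, or 3.81 on the log2 scale. Its fitted log2 fold change after normexp was 2.20, below that bound. Fabp4, a fatty acid carrier of adipocytes, macrophages and endothelium, rose by 1.77 (SE 0.24, limma's adjusted p = 0.00342). Pparg read 0.439, 0.421 and 0.376 in the normal livers and 1.19, 0.765 and 0.642 in the tumors, so that it was higher by 1.03 on the log2 scale (SE 0.23), and by 0.60 after normexp. The lower genes with the largest changes were Acot1 (-2.48) and Angptl4, an inhibitor of lipoprotein lipase (-1.83). Ppara, a receptor named here after its values were seen, had a log2 fold change of -0.38 and was not called (limma's adjusted p = 0.103). With spike-in scaling 6 genes of the list were higher and 5 lower, so the balance between them depended on the scaling. The number of lower genes was also 5 without normal liver 2 or 3. Without normal liver 3, the number of higher genes was 2.

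**Figure D3:**
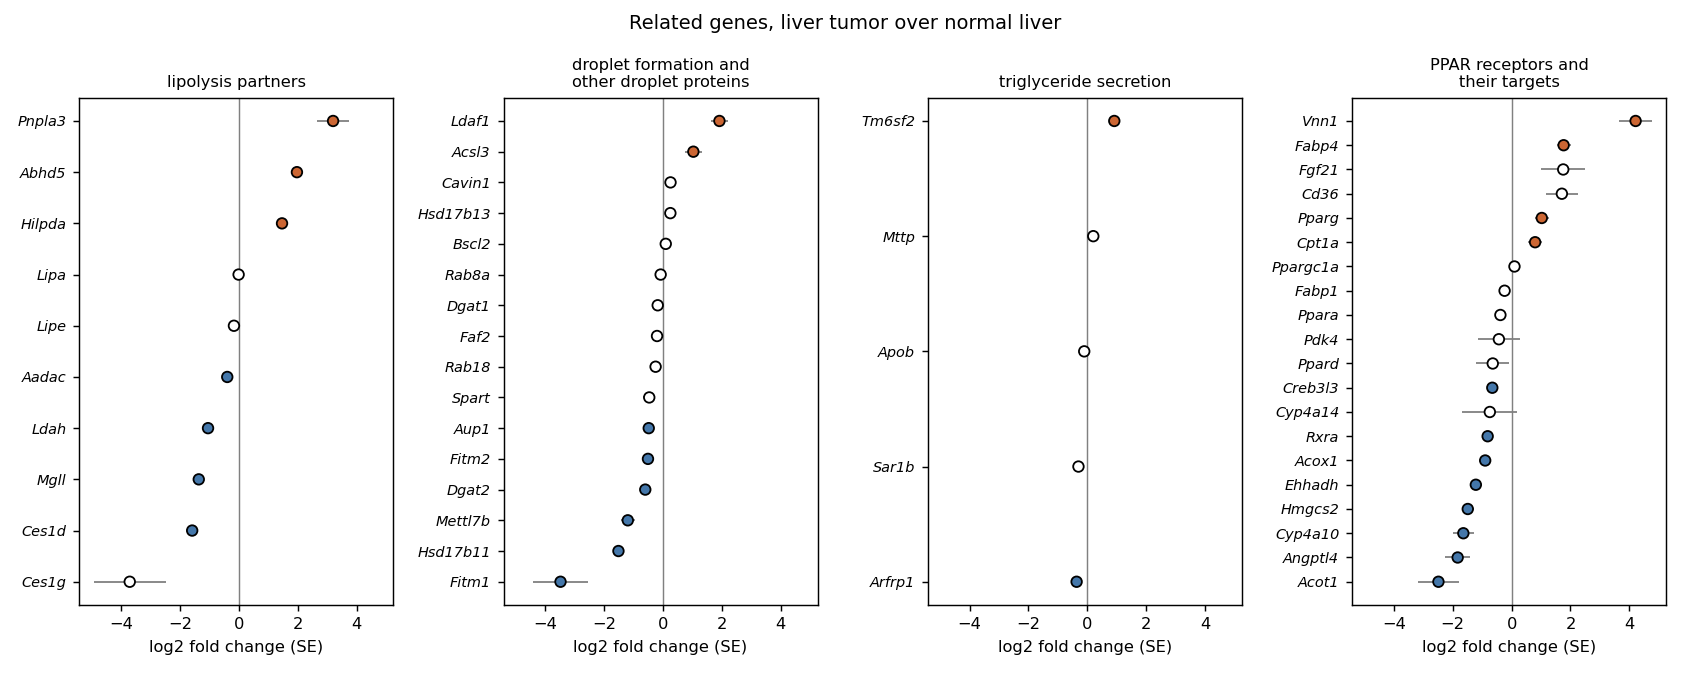
Log2 fold change (liver tumor over normal liver) with SE (where longer than the point) for the tested genes of 4 lists around the lipid droplet. Orange points were called higher, blue points lower and open points were not called; Vnn1 is plotted at its fitted value, while its bound is 14.0-fold. Higher and lower genes occur side by side in every list.

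Markers of other cell types that could bring droplet genes into the tissue were read on the same arrays. Of 9 adipocyte markers, Adipoq, Lep and Retn, which define the type, were not well above background on any array, and Cfd was so on 1 normal array. Of the 5 tested, Fabp4 and Lpl were higher (Lpl by 1.03, limma's adjusted p = 0.0472), Adrb3 was lower (-0.97), and Aqp7 (-0.24) and Slc2a4 (-0.24) did not pass. The other probe of Lpl read 0.78 and was not called (limma's adjusted p = 0.0812). The summed expression value of the list was 39.7 to 63.5 in the normal livers and 81.1 to 107.3 in the tumors, mostly Lpl. Plin1 was likewise not above background.

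Of 10 hepatocyte markers 9 had a probe. Apoa1 was higher (0.90), Cps1 (-1.48), Tat (-1.43) and Ass1 (-1.15) were lower, and Alb (-0.06), Ttr (-0.02), Apoa2 (-0.21), Hnf4a (0.16) and Trf (0.06) were not called. Their sum was 8000 to 8996 in the normal livers and 8036 to 8177 in the tumors. A sum follows the brightest probes of its list, here Alb, Apoa2, Trf and Ttr. All 9 hepatocyte markers were well above background on all 6 arrays, as the tissue label has it. Among markers of stellate cells, which also store lipid, the collagen gene Col1a1 (1.58) and Reln (0.72) were higher. Lrat, which makes the retinyl ester these cells store (-1.83), Hgf (-1.55), Colec11 (-1.47), Des (-0.85) and Pdgfrb (-0.76) were lower, and Col3a1 (0.29) was not called. After normexp Lrat was at -0.84 and Hgf at -0.74, and Reln (0.28) and Des (-0.19) were not called. Des was well above background in 2 of 3 tumors, so it passed the filter only through the normal livers. Of 9 macrophage markers 6 were lower and 0 higher, against 21.0% lower and 13.1% higher over all genes tested. The called markers with the largest changes were Clec4f (-1.84), Timd4 (-1.65), Vsig4 (-1.27) and Cd5l (-1.08). Marco (-1.24), Adgre1 (-1.12) and Lyz2 (-0.81) were not called, although the other probe of Adgre1 was called lower (-1.15, limma's adjusted p = 0.0423). The sum of the 9 macrophage markers was 103 to 176 against 52.4 to 86.5. Of 7 endothelial markers, Stab2 (-0.78) and Clec4g (-0.49) were lower, although other probes of Stab2 read 0.02 and 0.09, and neither was called with spike-in scaling. Pecam1 (-0.01), Kdr (-0.0026), Cdh5 (0.14), Oit3 (-0.10) and Lyve1 (1.501, limma's adjusted p = 0.0913) were not called, but Lyve1 was called higher with spike-in scaling (1.67, limma's adjusted p = 0.00409). The list's median was -0.0079, and its sum was 108 to 122 against 84.3 to 93.2. The part of these cells in the changes of the droplet genes was not tested.

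Over the 6 arrays, the tested genes whose mean-centred log2 values lay closest to those of Cidea were H19 (mean absolute difference 0.31), Spink1 (0.40) and Igdcc4 (0.41). H19 read 0.105 to 0.250 in the normal livers and 199, 67.2 and 40.9 in the tumors. Spink1 read 0.319 to 0.892 against 160, 124 and 53.0, and Igdcc4 0.0254 to 0.0445 against 16.2, 9.63 and 8.07. These genes were picked for their likeness over these arrays, so any pattern they share with Cidea is a description. In the normal livers Cidea and Igdcc4 were well above background on 0 of 3 arrays and H19 on 1 of 3, so that the distances rest in part on signal near background.

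**Figure D4:**
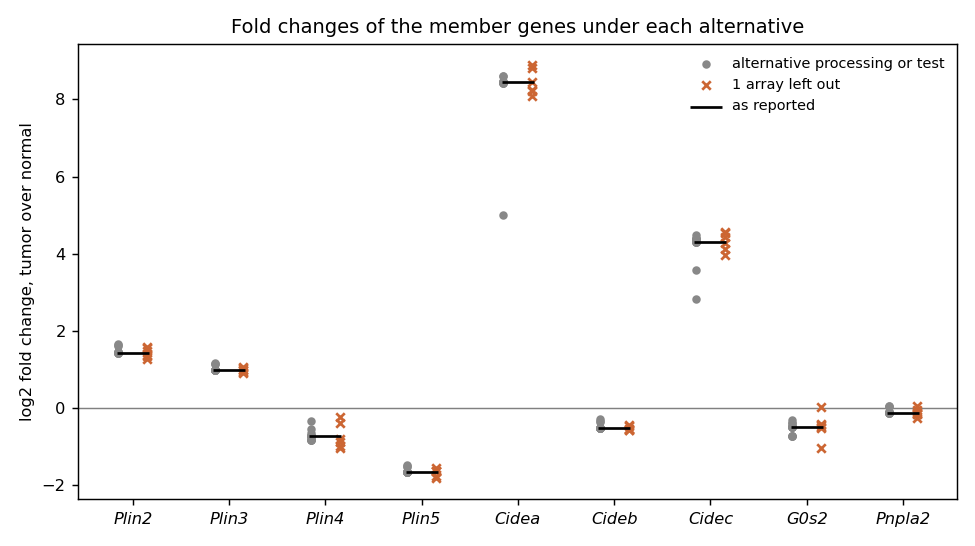
Log2 fold change of the 9 tested member genes as reported (black dash), under alternative processing or tests (grey) and with 1 array left out (orange crosses); values of Cidea are fitted and no bounds. Plin2, Plin3, Cidea and Cidec stay above 0 and Plin4, Plin5 and Cideb below 0 throughout, while Pnpla2 and G0s2 cross 0.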

How the data were processed

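For each array the authors deposited the Feature Extraction output (version 10.7.3.1 per the file headers, 12.0.3.1 per the labels), whose processed signal intensity is background subtracted. The authors also deposited a table of ratios of that signal to the 75th percentile of all spots, which matched the intensities on 100% of spots and served as an alternative. Each processed signal was divided by that percentile and taken to the log2 scale. Control and outlier spots were dropped, and spots of a probe were averaged. A probe counted as well above background on an array when a share of at least 0.5 of its spots was.

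Groups were compared with limma 3.58.1 (lmFit, eBayes) under R 4.3.3; tests were two-sided and adjusted over 24901 probes by Benjamini-Hochberg. The brightest probe by mean log2 signal represented a gene. Tables were made with pandas 2.3.3 and numpy 2.4.6, permutation tests with scipy 1.17.1 and figures with matplotlib 3.10.9, all under Python 3.11.15. Probes were named through RefSeq annotation of GRCm38.p6 by accession (27235), symbol (3581) or synonym (565), and 24300 kept the design's name. Probe coordinates are those of the array design (mm9), upstream sequences those of GRCm38.p6, and none were converted. On simulated data over 24901 probes, limma called 163 of 200 changed probes, each with its true sign, and 7 unchanged ones. It recovered 53.7% of 2-fold changes, 92.5% of 4-fold changes and 98.5% of 8-fold changes. Far more probes, 8239, were called in the data than were changed in the simulation, so these rates may not carry over.

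The members, lists and tests were chosen with earlier results of these data known. Named were all members, called list genes without overlap up to the 4 largest changes, list genes left over where 5 or fewer, and the 3 genes closest to Cidea. Alternatives were normexp, quantile or spike-in scaling (8 spike-in probes), the percentile without controls, the deposited table, other filters, eBayes with a trend, a replicate block, the mean of a gene's probes, the methods' t-test in both forms and leaving out each array. A stellate cell marker and the summed level of that list are not reported here.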

Additional observations from a re-analysis of the deposited data

How the results depend on the processing

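Of 179 log2 fold changes of member genes under the alternatives, 156 kept their direction and side of the threshold, 18 kept the direction but were no longer called, and 5 changed sign, all of genes that were not called. Cideb was no longer called with normexp (-0.29), quantile normalization (-0.32), spike-in scaling (-0.35) and no filter (-0.52), and its leave-one-out values ran from -0.58 to -0.44. The methods' t-test with pairing and Benjamini-Hochberg adjustment called 0 of 24901 probes (7419 unadjusted, against 8239 by limma), so that Plin2 (1.44), Plin3 (0.99), Plin5 (-1.65), Cidea (8.42), Cideb (-0.52) and Cidec (4.37) were not called. Cidea (8.42) and Cidec (4.37) were also not called by the unpaired form after adjustment and by the paired form without it. For Cidea these are fitted values and no bounds, and the filter of all 6 arrays left it without a value. Pnpla2 changed sign with normexp (0.048), quantile normalization (0.020), spike-in scaling (0.048) and without tumor 2 (0.046), with leave-one-out values from -0.25 to 0.046. G0s2 ran from -1.03 to 0.026 with 1 array left out, above 0 without normal liver 2, and the difference of G0s2 and Pnpla2 from -0.86 to 0.16.

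The number of members called higher was 4, and 2, 0 and 2 in the t-test forms unpaired adjusted, paired adjusted and paired. The number called lower was 2, then 1 with normexp, quantile normalization, spike-in scaling and no filter, 0 with the paired adjusted t-test and 1 to 2 with 1 array left out. Droplet formation genes called higher numbered 1 with no filter and 1 to 2 with 1 array left out, and those called lower 3 with spike-in scaling, 2 with no filter and 2 to 5 with 1 array left out. Secretion genes called higher were 2 with normexp, and those called lower 0 with quantile normalization, spike-in scaling, no filter, the replicate block and any array left out. PPAR genes called higher were 6 with spike-in scaling, 5 with normexp, 2 with no filter and 2 to 4 with 1 array left out, and those called lower 5 with spike-in scaling or no filter and 5 to 8 with 1 array left out. The cause of these changes was not tested.

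All probes called numbered 8239, against 5003 with spike-in scaling, 4672 with no filter, 5261 with the adjusted unpaired t-test and 4954 without normal liver 2. Same-numbered arrays had deviations that correlated at 0.07, 0.18 and 0.05, and normal liver 3, tumor 1 and tumor 3 correlated best with another number. The numbers were therefore not taken as pairs, and whether same-numbered samples share a mouse is not known from the labels. With the number as a replicate block, 7021 probes were called, and no member call changed. Dim probes such as Plin1 and Plin4 and the normal livers' Cidea are limited by their signal over background.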
